A study of Mus musculus with 8 samples.

Results

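Ribosome biogenesis and nucleolar factors are the proteins that transcribe ribosomal RNA, process and modify it, and assemble it with ribosomal proteins in the nucleolus. A list of 36 such genes was followed by symbol in the table of raw read counts of bone marrow plasma cells, which holds 27179 genes. All 36 were present, and all 36 were among the 15073 genes with enough counts to test. The rule for the list names genes by function and uses no measured value, though the list was drawn up with results of these data known.

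RNA was sequenced from plasma cells, the antibody-secreting end stage of the B lineage, sorted from C57BL/6 mouse bone marrow as CD138-positive cells carrying a Blimp1-GFP reporter. The 8 libraries make 4 groups of 2: wild type (WT) replicates 1 and 2 with both Blimp1-/- libraries (Blimp1KO) in batch 1, and WT replicates 3 and 4 with both Xbp1-/- libraries (Xbp1KO) in batch 2. Blimp1, encoded by Prdm1, is the transcription factor that directs plasma cell identity, and XBP1 is the transcription factor that drives secretory capacity in these cells. The series asks what Blimp1 controls in plasma cells. The deposited file names of batch 2 carry the term CreER, the name of an inducible recombinase, for the WT as well as the Xbp1KO libraries. The age of the mice, the cells in which a recombinase acted and the time since deletion are not given in the sources used here. The submitters call the replicates biological.

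Ribosomal RNA is transcribed by RNA polymerase I from the ribosomal DNA repeats. Small nucleolar ribonucleoproteins (snoRNPs), each a guide RNA with a set of core proteins, modify and help to cut the transcript, and separate sets of assembly factors then build the small and the large subunit. Plasma cells translate antibody mRNA at a very high rate, and Myc, a known activator of ribosome biogenesis genes, is repressed by Blimp1 in differentiating B cells.

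Total counts ranged from 44.01 M to 145.4 M per library (M for 1e6), and counts outside 261 immunoglobulin genes from 18.98 M to 72.92 M. The immunoglobulin share was 64.81% to 75.75% in WT, 55.43% and 58.35% in Blimp1KO, and 29.98% and 25.2% in Xbp1KO. The 36 genes took 39283 to 252595 counts per library, and the lowest single count was 73, for Fbl in WT replicate 1. Plasma cell markers were abundant in every library, and Prdm1 and Xbp1 stayed measurable where they were targeted: Prdm1 fell short of a call in Blimp1KO (log2 fold change -0.54 ± 0.25 SE, adjusted p = 0.401), as did Xbp1 in Xbp1KO (-0.85 ± 0.25, adjusted p = 0.0939). These counts cover whole genes, so they do not check a deletion of part of a gene. Levels are given in CPM, counts per 1e6 counts of the library after its size was scaled by TMM, and differences as log2 fold changes against WT of the same batch. A gene was called at an adjusted p below 0.05 over all genes tested. In bulk RNA, a change in the make-up of the sorted cells and a change of RNA per cell cannot be told apart.

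In Xbp1KO, 4 of the 36 genes were called, all higher than in WT of batch 2: Npm1, Ncl, Nop56 and Taf1d. Over all genes tested, 2.63% were called higher and 5.06% lower in this comparison, 7.7% in all. The estimate was above 0 for 31 of the 36 genes, against 55.8% of all genes, and the median log2 fold change was 0.45 over the 36 genes and 0.08 over all genes. In Blimp1KO none of the 36 was called by edgeR, where 0.577% of all genes were called higher and 0.285% lower, 0.862% in all. The estimate was above 0 for 26 of the 36 genes in Blimp1KO, against 48.8% of all genes, with a median of 0.10 over the 36 genes and -0.01 over all genes. The plot of fold changes by role sets both knockouts side by side.

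**Figure D1:**
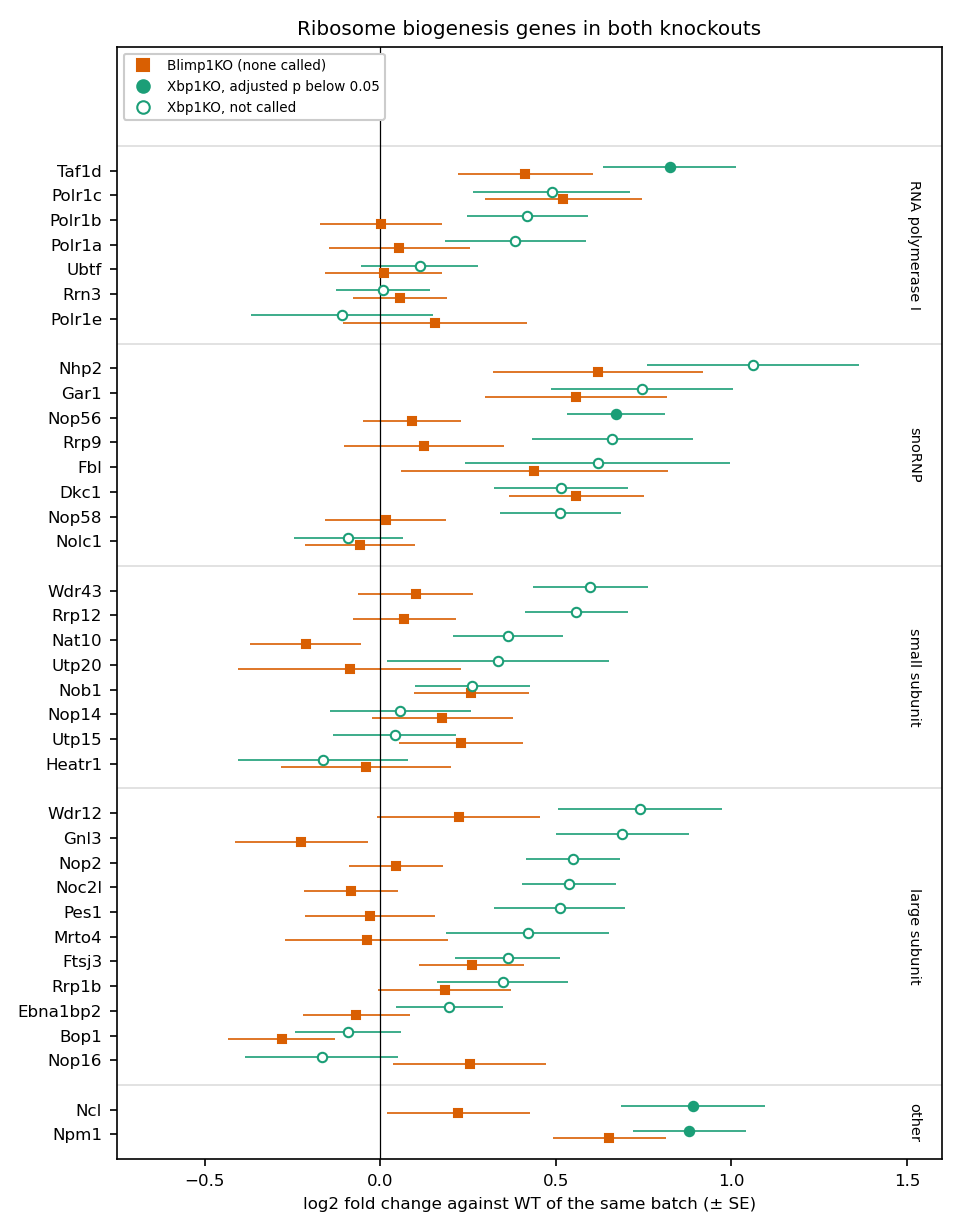
Log2 fold change of each of the 36 genes against WT of the same batch, with 1 SE from the edgeR fit, in Blimp1KO (orange squares) and Xbp1KO (green circles, filled where the adjusted p was below 0.05), grouped by role; "other" holds Ncl and Npm1. The 4 filled circles are Taf1d, Nop56, Ncl and Npm1, and 31 of the 36 green circles lie above 0.

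The highest folds among the 4 called genes belonged to the abundant nucleolar proteins. Nucleolin (Ncl, Entrez 17975, chr1:86344719-86359455 in GRCm38.p6), which binds nascent ribosomal RNA and ribosomal chromatin, was counted at 199.1 and 196.3 CPM in batch 2 WT and at 392.2 and 341.3 CPM in Xbp1KO. Nucleophosmin (Npm1, Entrez 18148, chr11:33152498-33164142), a histone and assembly chaperone, was at 38.92 and 39.89 CPM in batch 2 WT and 78.97 and 66.16 CPM in Xbp1KO. For both genes the WT pair differed little and each Xbp1KO library lay far above it. The log2 fold change was 0.89 ± 0.20 (SE) for Ncl, with an adjusted p of 0.0459, and 0.88 ± 0.16 for Npm1, with an adjusted p of 0.0232. In batch 1, Npm1 was at 50.91 and 49.64 CPM in WT and at 72.95 and 85.13 CPM in Blimp1KO, groups that do not overlap, and its log2 fold change of 0.65 ± 0.16 did not pass the threshold (adjusted p = 0.132). Ncl was at 178.5 and 186.7 CPM in batch 1 WT and at 242.8 and 183.5 CPM in Blimp1KO, so that the groups overlapped (0.22 ± 0.20, adjusted p = 0.738). Mouse Npm1 has processed pseudogenes, and how reads that map to several places were counted is not given in the sources used here.

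**Figure D2:**
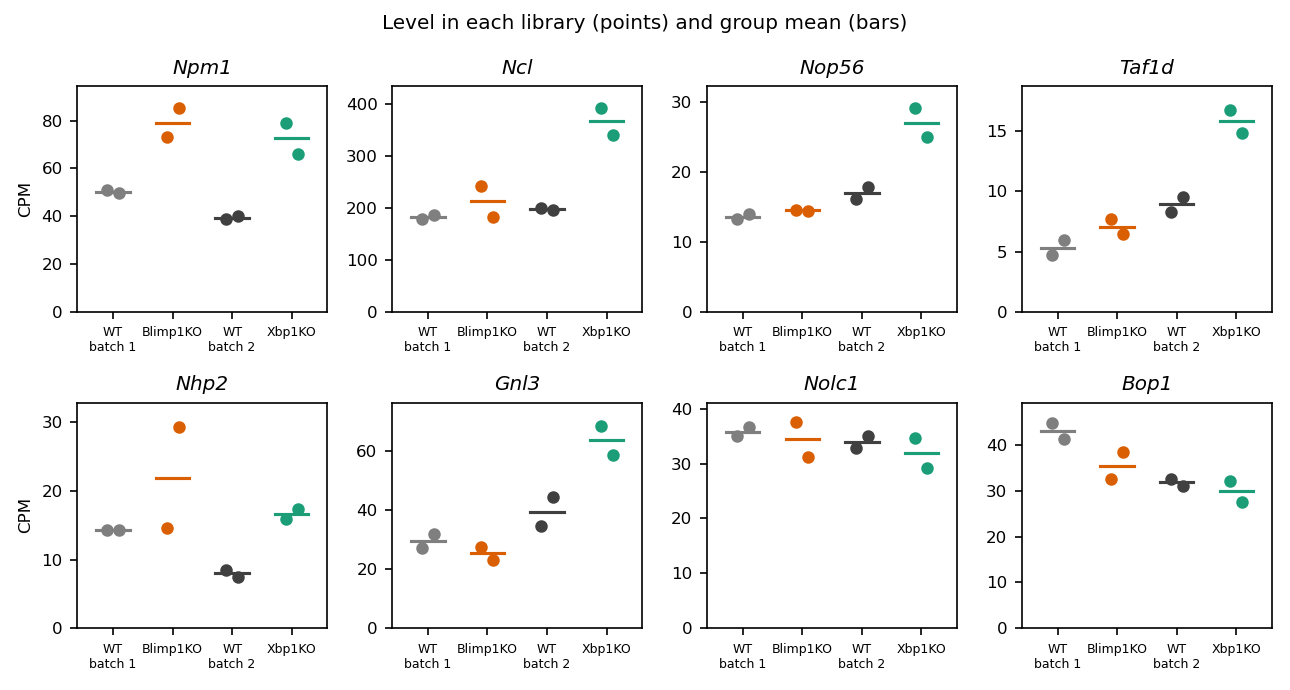
CPM of 8 genes in each library, with points for libraries and bars for the means of the 2 libraries of a group; each axis starts at 0. The Xbp1KO points of Npm1, Ncl, Nop56 and Taf1d lie above both WT points of batch 2, those of Nolc1 overlap the WT pair, and the Blimp1KO points of Nhp2 stand apart from each other at 14.56 and 29.37 CPM.

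Among the 7 genes of RNA polymerase I transcription, Taf1d rose in Xbp1KO and the other 6 were not called. Taf1d (Entrez 75316, chr9:15305953-15316997), a subunit of the selectivity factor that places the polymerase at the ribosomal promoter, went from 8.324 and 9.556 CPM in WT of batch 2 to 16.77 and 14.87 CPM. That is a log2 fold change of 0.82 ± 0.19, with an adjusted p of 0.0465. Taf1d was at 4.694 and 5.943 CPM in batch 1 WT and at 7.689 and 6.484 CPM in Blimp1KO (0.41 ± 0.19, adjusted p = 0.405). The subunits of the polymerase itself had estimates of 0.39 (Polr1a, the largest subunit), 0.42 (Polr1b, the second largest) and 0.49 (Polr1c, shared with RNA polymerase III) in Xbp1KO, with groups that do not overlap for these 3, and of 0.05, 0.00 and 0.52 in Blimp1KO. The remaining subunit, Polr1e, was among the 3 lowest in Xbp1KO: it was at 4.021 and 5.852 CPM in batch 2 WT and at 4.903 and 4.238 CPM in Xbp1KO (-0.11 ± 0.26, adjusted p = 0.844). The Polr1e estimate turned to 0.18 without WT replicate 4 and 0.02 without Xbp1KO replicate 2. The initiation factor Rrn3 and the ribosomal DNA-binding protein Ubtf were near 0 in both knockouts, at 0.01 and 0.11 in Xbp1KO and at 0.06 and 0.01 in Blimp1KO. The group median was 0.39 in Xbp1KO and 0.06 in Blimp1KO.

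The snoRNP proteins had the highest group median apart from the Ncl and Npm1 pair, 0.64 in Xbp1KO and 0.28 in Blimp1KO. Nop56 (Entrez 67134, chr2:130274367-130279313), a core protein of the box C/D snoRNPs that guide methylation of ribosomal RNA, rose in Xbp1KO. Its levels were 16.15 and 17.77 CPM in batch 2 WT and 29.08 and 24.92 CPM in Xbp1KO, a log2 fold change of 0.67 ± 0.14 with an adjusted p of 0.0345. In batch 1 they were 13.24 and 13.96 CPM in WT and 14.59 and 14.39 CPM in Blimp1KO (0.09 ± 0.14). The partner core protein Nop58 and the methyltransferase Fbl (fibrillarin) had estimates of 0.51 ± 0.17 and 0.62 ± 0.38 in Xbp1KO that were not called (adjusted p = 0.128 and 0.387), and of 0.02 ± 0.17 and 0.44 ± 0.38 in Blimp1KO. Fbl was counted at 1.655 to 4.907 CPM over the 8 libraries, with the pair of WT replicates 1 and 2 at 1.655 and 2.751 CPM. Rrp9, a protein of the box C/D snoRNP that guides early cleavage, was 0.66 ± 0.23 higher in Xbp1KO (adjusted p = 0.136) and 0.12 ± 0.23 in Blimp1KO.

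Of the box H/ACA snoRNPs, which turn uridine of ribosomal RNA into pseudouridine, the 3 listed proteins (Nhp2, Gar1 and Dkc1) had estimates above 0.5 in both knockouts, and edgeR called none of them. Nop10, a core protein of the same particle from the list of further biogenesis genes, had 0.47 ± 0.23 in Blimp1KO and -0.29 ± 0.23 in Xbp1KO, and the assembly factor Shq1 -0.11 and -0.17. Nhp2, a core protein of the particle, was at 8.47 and 7.538 CPM in batch 2 WT and at 15.97 and 17.45 CPM in Xbp1KO. This log2 fold change of 1.06 ± 0.30, the highest of the 36, had an adjusted p of 0.0847 by edgeR. DESeq2 called Nhp2 (adjusted p = 0.0185; 0.00501 to 0.51 over its alternatives), as did the edgeR fits of batch 2 alone and without the filter on low counts. In batch 1, Nhp2 was at 14.29 and 14.28 CPM in WT and at 14.56 and 29.37 CPM in Blimp1KO, so the estimate of 0.62 ± 0.30 (adjusted p = 0.429) rests on replicate 2. It was 0.03 without Blimp1KO replicate 2, and 1.09 without replicate 1, where Nhp2 was called (adjusted p = 0.0225; 0.0225 to 0.978 over all leave-one-out fits). Gar1, another core protein, was at 3.15 and 3.805 CPM in batch 2 WT and 5.913 and 5.737 CPM in Xbp1KO (0.74 ± 0.26, adjusted p = 0.137), and at 4.309 and 5.061 CPM in batch 1 WT and 5.518 and 8.28 CPM in Blimp1KO (0.56 ± 0.26). The Gar1 groups did not overlap in either batch. Dkc1, the pseudouridine synthase, was at 15.83 and 19 CPM in batch 1 WT and at 28.87 and 22.45 CPM in Blimp1KO (0.56 ± 0.19, adjusted p = 0.258), and at 14.74 and 16.24 CPM in batch 2 WT and 24.48 and 19.81 CPM in Xbp1KO (0.52 ± 0.19, adjusted p = 0.158). Each knockout library was above its WT pair for Dkc1 too. The chaperone Nolc1 was the exception among the snoRNP genes, with estimates of -0.06 ± 0.16 in Blimp1KO and -0.09 ± 0.16 in Xbp1KO.

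None of the 8 small subunit genes was called in either knockout by edgeR. At an unadjusted p below 0.05, Wdr43 and Rrp12 were higher in Xbp1KO and none differed in Blimp1KO. Over all 15073 genes, 1719 were higher and 1833 lower at this p in Xbp1KO, and 2093 differed in Blimp1KO. Wdr43, a scaffold of the early small subunit processome, and Rrp12, which helps to export the pre-subunits, were higher by 0.60 ± 0.16 and 0.56 ± 0.15 in Xbp1KO (adjusted p = 0.0761 and 0.0664), and DESeq2 called Wdr43. The acetyltransferase Nat10 stood on opposite sides of 0 in the 2 knockouts. It was at 11.45 and 11.42 CPM in WT and 10.99 and 8.755 CPM in Blimp1KO (-0.21 ± 0.16, adjusted p = 0.652), and at 13.8 and 14.14 CPM in WT and 19.09 and 16.89 CPM in Xbp1KO (0.37 ± 0.16, adjusted p = 0.218). The Nat10 groups did not overlap in either batch, and its difference of effects, 0.58 ± 0.22, was not called (adjusted p = 0.264). Heatr1, a large processome scaffold, was among the 3 lowest in Xbp1KO, at 36.76 and 39.98 CPM in WT and at 39.87 and 28.63 CPM in the knockout (-0.16 ± 0.24; 0.08 without Xbp1KO replicate 2). The processome components Utp20, Nop14 and Utp15 had estimates of 0.34, 0.06 and 0.04 in Xbp1KO and of -0.09, 0.18 and 0.23 in Blimp1KO. The endonuclease Nob1, which makes the last cut of the small subunit RNA, had an estimate of 0.26 in both.

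None of the 11 large subunit genes was called by edgeR in either knockout. At an unadjusted p below 0.05, 6 of them (Nop2, Pes1, Wdr12, Gnl3, Ftsj3 and Noc2l) were higher in Xbp1KO. Over all genes, 1719 of 15073 were higher at this p. The methyltransferase Nop2 and the assembly factor Noc2l came closest to a call, at 0.55 ± 0.13 (adjusted p = 0.0544) and 0.54 ± 0.13 (adjusted p = 0.0584). DESeq2 called Nop2, Gnl3 and Noc2l in Xbp1KO, and limma on log2 FPKM called Gnl3 and Noc2l. Nucleostemin (Gnl3), a GTPase of the nucleolus, was at 34.48 and 44.3 CPM in batch 2 WT and at 68.34 and 58.66 CPM in Xbp1KO (0.69 ± 0.19, adjusted p = 0.0765). In batch 1, Gnl3 was at 27.28 and 31.77 CPM in WT and at 27.53 and 23 CPM in Blimp1KO, an estimate of -0.22 ± 0.19 with overlapping groups. Bop1, Pes1 and Wdr12 form 1 complex that matures large subunit RNA, and they did not have like estimates. Wdr12 was at 2.237 and 2.897 CPM in batch 2 WT and 4.363 and 4.206 CPM in Xbp1KO (0.74 ± 0.23, adjusted p = 0.108), and Pes1 was 0.51 ± 0.19 higher, both without overlap of the groups. Bop1 was at 32.62 and 31.1 CPM in batch 2 WT and 32.19 and 27.63 CPM in Xbp1KO (-0.09 ± 0.15), and at 44.72 and 41.35 CPM in batch 1 WT and 32.48 and 38.39 CPM in Blimp1KO (-0.28 ± 0.15, adjusted p = 0.49), the lowest estimate of the 36 there. The Bop1 groups overlapped in batch 2 and not in batch 1. Nop16 was lowest in Xbp1KO, at 6.122 and 8.215 CPM in WT and 7.298 and 5.456 CPM in the knockout (-0.17 ± 0.22), and its estimate turned to 0.05 without WT replicate 4 and 0.06 without Xbp1KO replicate 2. Without Xbp1KO replicate 2 all 36 genes had an estimate above 0. The other 4 genes of the group, Ftsj3, Mrto4, Rrp1b and Ebna1bp2, lay between 0.20 and 0.42 in Xbp1KO and between -0.07 and 0.26 in Blimp1KO.

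Read by library instead of by gene, all 36 genes were above the WT mean of batch 2 in Xbp1KO replicate 1 (median difference 0.54 on the log2 scale) and 28 of 36 in Xbp1KO replicate 2 (0.35). In Blimp1KO the numbers were 26 (0.10) and 24 (0.07). Summed over the 36 genes, the level was 875.51 and 900.59 CPM in batch 2 WT and 1350.5 and 1158.9 CPM in Xbp1KO, and 890.85 and 909.6 CPM in batch 1 WT and 1029.2 and 951.41 CPM in Blimp1KO. Abundant genes weigh most in such a sum. Ncl alone had means of 197.7 CPM in batch 2 WT and 366.8 CPM in Xbp1KO. In batch 1 its means were 182.6 CPM in WT and 213.1 CPM in Blimp1KO. As CPM of the counts outside immunoglobulin genes alone, a measure that the immunoglobulin share does not enter, the sum was 2327.8 and 2417.5 in WT of batch 2 and 3464 and 3264.4 in Xbp1KO. In batch 1 it was 2069.6 and 2252.6 in WT and 2442 and 2204.5 in Blimp1KO. Groups did not overlap for 26 of the 36 genes in Xbp1KO, all higher, against 31.8% of all genes higher and 25.8% lower. In Blimp1KO they did not overlap for 13 genes higher and 2 lower (Nat10 and Bop1), against 20.9% and 22.1% of all genes.

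The number of calls in Xbp1KO changed with the library left out, among the 36 genes and over all genes. Without any 1 of the 4 WT libraries, or without either Xbp1KO library, 0 of the 36 genes were called, with 5 to 19 at an unadjusted p below 0.05, all higher. Without Blimp1KO replicate 1 it was 5, and without Blimp1KO replicate 2 it was 10. Over the 8 fits that leave out 1 library, the estimates of the 4 genes lay between 0.48 and 1.03 and their adjusted p values between 0.0102 and 0.249. All 4 kept their sign in 17 of 17 alternatives. Taf1d was not called with library sizes from counts outside immunoglobulin genes, Ncl not without the filter on low counts, and Npm1 not against all 4 WT libraries pooled. DESeq2 called 9 of the 36 in Xbp1KO, limma-voom 4, limma on the deposited log2 FPKM 7, and a fit of batch 2 alone 7. Over all genes these fits called 6.36%, 3.75%, 2.93% and 4.08% higher, in the same order, against 2.63% in the main fit. In Blimp1KO edgeR had 2 genes at an unadjusted p below 0.05 (Npm1 and Dkc1, both higher), against 2093 of all 15073 genes. DESeq2 called 1 of the 36 there (Npm1), against 3.71% of all genes called higher, and both limma fits called 0.

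The difference between the knockout effects was tested directly, Xbp1KO effect minus Blimp1KO effect, and none of the 36 genes passed by edgeR, by DESeq2 or by either limma fit. At an unadjusted p below 0.05, edgeR had 6 genes, all with the higher effect in Xbp1KO: Gnl3, Noc2l, Nop2, Nat10, Nop56 and Rrp12. Over all 15073 genes, 1075 had the higher and 1324 the lower effect in Xbp1KO at this p. Gnl3 had the largest difference, 0.91 ± 0.27 with an adjusted p of 0.15. Over all genes tested, 0.511% were called with the higher effect in Xbp1KO and 1.17% with the lower, 1.68% in all. The difference was above 0 for 27 of the 36 genes, against 52.5% of all genes. The median difference was 0.30 over the 36 genes and 0.04 over all genes. A difference between the knockouts was therefore not established for any of the 36 genes with 2 libraries a group.

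In WT cells the 36 genes spanned more than an order of magnitude in level per length. Npm1 (29.3 ± 0.522 CPM per kilobase, SD, n = 2, in batch 1 and 22.9 ± 0.399 in batch 2) and Ncl (22.1 ± 0.702 and 23.9 ± 0.236) led, and Bop1, Ubtf and Gnl3 followed. Their order changed between batches: Ncl was above Npm1 in batch 2, and Gnl3, Ubtf and Bop1 stood at 20.9 ± 3.69, 17.3 ± 1.67 and 12.9 ± 0.434 there. The lowest was Wdr12, at 1.43 ± 0.0733 and 0.76 ± 0.138. Lengths are those of the deposited count table, which gives Ncl 8257 bases and Npm1 1718. In CPM, with no division by length, Ncl was above Npm1 in both batches (means of 182.6 and 197.7 against 50.28 and 39.41). The order of Ncl and Npm1 therefore depends on the length used.

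**Figure D3:**
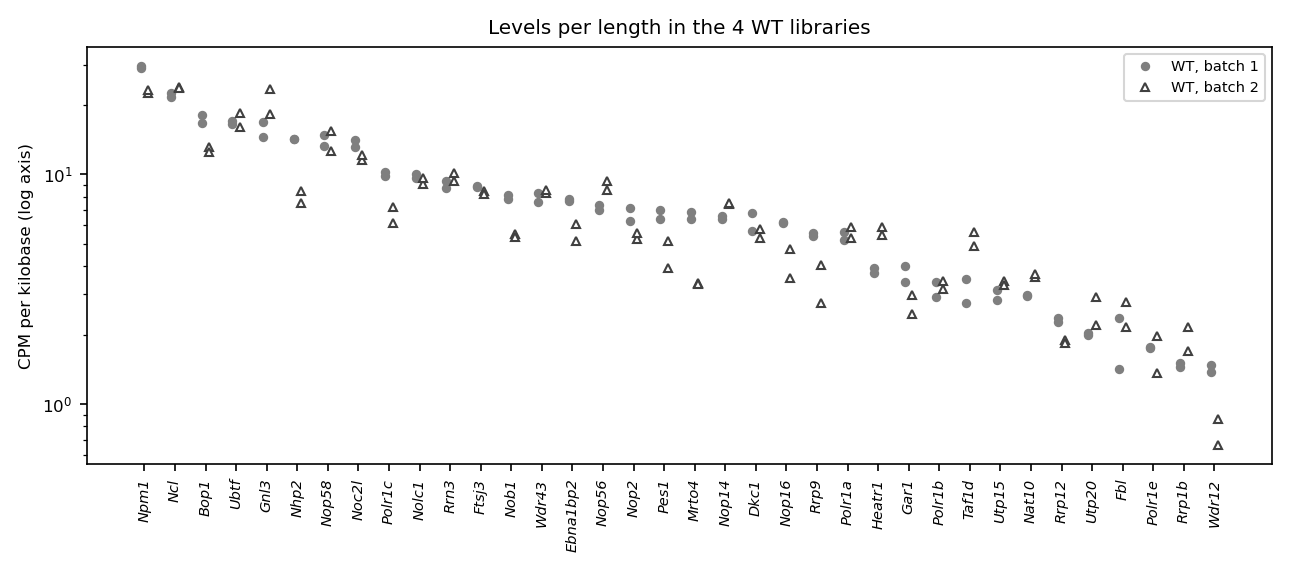
Level per length of the 36 genes (CPM per kilobase, log axis) in the 4 WT libraries, ordered by the mean of batch 1; filled circles are batch 1 and open triangles batch 2. Npm1 and Ncl have the highest means in each batch, with libraries at 21.6 to 29.6, and Gnl3 reaches 23.5 in WT replicate 4. Wdr12 has the lowest mean in each batch, with libraries at 0.663 to 1.48.

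WT of the 2 batches was compared to see how far the genes differ between libraries that share the WT label. The file names of batch 2 carry CreER, so a difference of genotype between the WT groups cannot be told apart from batch. None of the 36 genes was called between WT of batch 2 and WT of batch 1 by edgeR or limma, where 1.96% of all genes were called higher and 0.843% lower, 2.81% in all, and DESeq2 called 3 (Taf1d higher, Wdr12 and Mrto4 lower). At an unadjusted p below 0.05, edgeR had 1 gene higher and 10 lower in batch 2, against 1924 higher and 2163 lower of all 15073 genes. The estimates ran from -0.98 ± 0.23 for Mrto4, a ribosomal stalk assembly factor (6.395 and 5.943 CPM in batch 1, 3.133 and 3.113 in batch 2), to 0.75 ± 0.19 for Taf1d. Of the 11 large subunit genes, 9 were lower in batch 2 with no overlap, against 35.3% of all genes. The median over the 36 was -0.07 with TMM scaling and 0.08 with library sizes from counts outside immunoglobulin genes, a scaling that moved the median of all genes by 0.16 and the calls over all genes from 296 higher and 127 lower to 462 higher and 91 lower. Each knockout was read only against WT of its own batch.

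A further 132 ribosome biogenesis genes were all tested. In Xbp1KO 3 rose and 1 fell, against 2.63% of all genes called higher and 5.06% lower. These calls were thus no more frequent than over all genes. None was called in Blimp1KO by edgeR, where 0.862% of all genes were. At an unadjusted p below 0.05 stood 6 of the 132 in Blimp1KO, 5 of them higher, against 2093 of all 15073 genes. Nsa2, which acts on large subunit precursors, was at 16.14 and 15.88 CPM in batch 2 WT and 31.49 and 27.96 CPM in Xbp1KO (0.89 ± 0.17, adjusted p = 0.0246). The processome protein Utp3 (0.71 ± 0.15, adjusted p = 0.0354) and Nufip1, an assembly factor of box C/D snoRNPs (0.85 ± 0.18, adjusted p = 0.0381), also rose. Las1l, part of the enzyme that cuts the spacer between the large subunit RNAs, went from 43.61 and 37.76 CPM to 26.28 and 25.69 CPM (-0.65 ± 0.15, adjusted p = 0.0468). The estimate was above 0 for 97 of the 132 in Xbp1KO, with a median of 0.21, against 55.8% of all genes. In Blimp1KO it was above 0 for 78, with a median of 0.05, against 48.8% of all genes. In Blimp1KO the smallest adjusted p values were those of Nsa2 (0.83 ± 0.17, adjusted p = 0.0806) and Wdr3, a processome protein (0.75 ± 0.17, adjusted p = 0.108).

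The products that these factors assemble moved by library in another way. Of 76 tested genes of cytosolic ribosomal proteins, all 76 had an estimate above 0 in Blimp1KO (median 0.67, none called by edgeR). At an unadjusted p below 0.05, 30 of them were higher there, against 1068 of all 15073 genes. In Xbp1KO 73 had an estimate above 0 (median 0.65), and Rpl27a and Rpl4 were called higher, against 2.63% of all genes. Against the WT mean, the median difference of the 76 genes was 0.12 in Blimp1KO replicate 1 and 1.05 in replicate 2. That of the 36 biogenesis genes was 0.10 and 0.07. In Xbp1KO that of the 76 genes was 0.74 and 0.57. Many ribosomal protein genes have processed pseudogenes, so their counts are uncertain in the same way as those of Npm1.

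Myc was at 9.093 and 8.201 CPM in batch 2 WT and at 15.95 and 15.91 CPM in Xbp1KO, and it rose there by 0.88 ± 0.13 with an adjusted p of 0.0116. In batch 1 it was at 13.92 and 13.82 CPM in WT and at 17.62 and 18.5 CPM in Blimp1KO, with no overlap and no call (0.38 ± 0.13, adjusted p = 0.253). The groups of both knockouts thus lay wholly above their WT pair. Of 13 tested regulators of Myc, mTORC1 and RNA polymerase III, Myc was the only one called in Xbp1KO. None was called in Blimp1KO by edgeR (5 at an unadjusted p below 0.05). Over all genes, 7.7% were called in Xbp1KO and 0.862% in Blimp1KO, where 2093 of 15073 had an unadjusted p below 0.05.

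RNA of markers of cycling cells and of other bone marrow cells differed between libraries as well. Of 15 cycling markers, 5 rose in Xbp1KO (Bub1, Top2a, Mcm5, Mcm3 and Mcm2), against 2.63% of all genes called higher. All 15 had an estimate above 0 there, against 55.8% of all genes, and none was at 0 in any library. Their summed level was 301.2 and 420.5 CPM in batch 2 WT and 732.7 and 918.7 CPM in Xbp1KO, and 199.4 and 259.9 CPM in batch 1 WT and 138.4 and 150.9 CPM in Blimp1KO. Their part in the levels of the 36 genes was not tested. In Blimp1KO, 9 of 10 B cell markers had an estimate above 0 (median 1.22, none called by edgeR, 5 at an unadjusted p below 0.05), with sums of 213.3 and 178.9 CPM in WT and 474.8 and 481.7 CPM in the knockout. The 10 plasma cell markers include the targeted genes Prdm1 and Xbp1, so this list is not independent of the knockouts. All 10 had an estimate below 0 in Blimp1KO (median -0.45, none called, 1 at an unadjusted p below 0.05). At that p stood 2093 of all 15073 genes in Blimp1KO. In Xbp1KO the medians were 0.37 for B cell and 0.15 for plasma cell markers, with 1 B cell marker higher and 1 plasma cell marker lower by the test. Of the 2 Xbp1KO libraries, replicate 2 had the higher cycling sum and replicate 1 the higher sum of the 36 genes. Replicate 2 also had the higher sums of neutrophil, monocyte and erythroid markers, given next. What this order of 2 libraries reflects was not tested. Marker sums of 10 neutrophil and monocyte genes were 5.644 and 580.6 CPM in batch 2 WT and 2.433 and 1375 CPM in Xbp1KO. Those of 7 erythroid genes were 21.99, 250.7, 5.855 and 813 CPM in the same order. The median log2 fold change of the 36 genes in Xbp1KO was 0.45 with all libraries and 0.51 without WT replicate 4 and Xbp1KO replicate 2, which leaves 1 library on each side and so is given as a value with no test. The part of these cells was not tested.

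**Figure D4:**
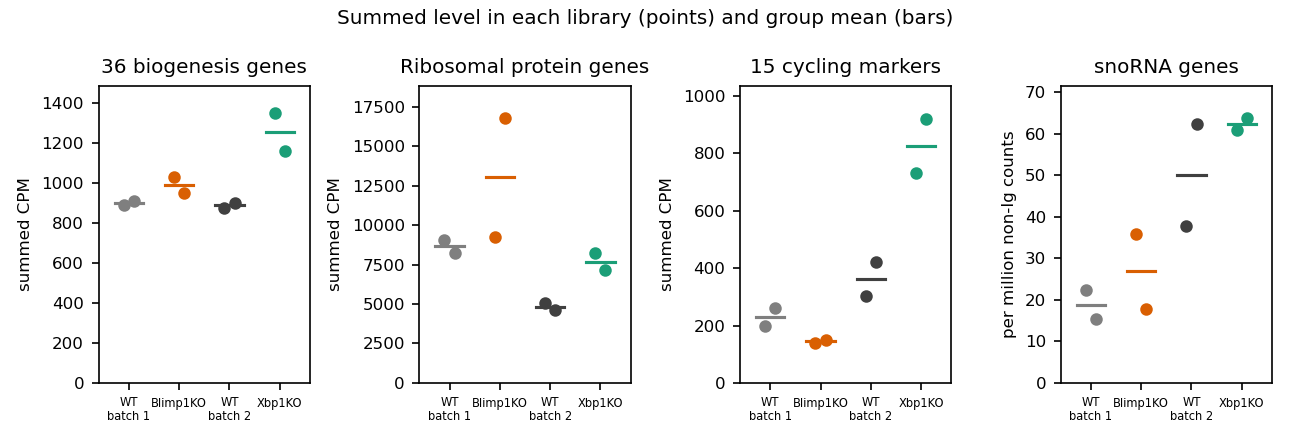
Summed CPM of the 36 biogenesis genes, of the ribosomal protein genes and of 15 cycling markers in each library. The last panel is the CPM of snoRNA genes with a symbol starting with Snor or Scarna, over counts outside immunoglobulin genes (non-Ig). Points are libraries and bars are the means of the 2 libraries of a group. The sum of the 36 genes is highest in the Xbp1KO pair (1350.5 and 1158.9), while the ribosomal protein sum is highest in Blimp1KO replicate 2 (16818).

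Several of the genes share a feature beside their products: 7 of the 36 carry snoRNA genes inside them on the same strand, in the GENCODE annotation of GRCm38. Taf1d holds 8, Nop56 5, Nop58 4, Gnl3, Ncl and Wdr43 3 each, and Dkc1 1. Over all genes, 2.63% were called higher and 5.06% lower in Xbp1KO. Of the 7 hosts, 3 rose in Xbp1KO (Taf1d, Nop56 and Ncl), and all 7 had estimates from 0.51 to 0.89, with a median of 0.67. The 29 other genes had 1 call (Npm1) and a median of 0.37, and 248 other tested host genes had 18 calls higher, 8 lower and a median of 0.25. In Blimp1KO the medians were 0.10, 0.07 and 0.04. This grouping was made after the values were seen, so no test was made of it. The sequences of 1 snoRNA gene from each called host are shown to let a reader see what the hosts carry, 5′ to 3′, with capitals for a box C match (TGATGA) and a box D match (CTGA) found by a text search:
Snord82 in Ncl, chr1:86356261-86356330, GRCm38, minus strand: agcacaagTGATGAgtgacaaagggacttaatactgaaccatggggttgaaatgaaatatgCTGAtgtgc
Snord110 in Nop56, chr2:130275506-130275573, GRCm38, plus strand: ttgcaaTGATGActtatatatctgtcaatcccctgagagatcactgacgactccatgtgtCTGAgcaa
Gm24357 in Taf1d, chr9:15315522-15315595, GRCm38, plus strand: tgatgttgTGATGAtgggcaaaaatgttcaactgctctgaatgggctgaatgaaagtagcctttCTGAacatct
These RNAs are shorter than the fragments most mRNA libraries retain, and their counts were low. The genes whose symbol starts with Snor or Scarna, which need not be all snoRNA genes, were summed as CPM of the counts outside immunoglobulin genes. The sum was 37.86 and 62.29 in WT of batch 2 and 61.03 and 63.79 in Xbp1KO. In batch 1 it was 22.44 and 15.29 in WT and 35.94 and 17.81 in Blimp1KO. WT replicate 4 lay inside the Xbp1KO values, so the groups overlapped.

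Promoter sequence was available for 32 of the 36 genes in the RefSeq table of GRCm38.p6, with 41 start sites. The called genes with an entry are shown from 250 bases before the start site to the start site itself, which is in capitals, since these 3 genes rose together in Xbp1KO:
Ncl, chr1:86359455-86359705, minus strand: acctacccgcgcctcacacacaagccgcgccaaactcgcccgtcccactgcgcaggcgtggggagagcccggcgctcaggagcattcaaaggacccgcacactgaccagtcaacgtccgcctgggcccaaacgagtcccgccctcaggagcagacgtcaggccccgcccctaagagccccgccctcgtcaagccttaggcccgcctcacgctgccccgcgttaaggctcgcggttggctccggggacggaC
Nop56, chr2:130274162-130274412, plus strand: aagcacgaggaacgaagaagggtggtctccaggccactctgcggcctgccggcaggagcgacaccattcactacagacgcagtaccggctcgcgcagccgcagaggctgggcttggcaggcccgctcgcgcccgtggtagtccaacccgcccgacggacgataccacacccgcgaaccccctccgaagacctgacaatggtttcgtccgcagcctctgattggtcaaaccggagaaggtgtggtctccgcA
Taf1d, chr9:15305964-15306214, plus strand: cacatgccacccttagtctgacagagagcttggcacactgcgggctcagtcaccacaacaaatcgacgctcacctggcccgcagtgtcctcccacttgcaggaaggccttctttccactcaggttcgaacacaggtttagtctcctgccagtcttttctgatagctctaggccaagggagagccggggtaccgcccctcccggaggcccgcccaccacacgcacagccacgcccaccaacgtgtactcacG
A set of 4 motifs was searched on both strands from 250 bases before to 50 bases after each start site. CACGTG, the E-box of Myc and Max, was in 5 of the 41 promoters (Nop2, Pes1, Rrn3, Utp20 and Wdr43) and in 7.84% of 21263 protein-coding promoters. TGACGTG, an element bound by XBP1, was in 1 of 41 (Utp15) and in 2.17% of all. AGNGAAAG, the core of the Blimp1 element, was in 3 of 41 (Nhp2, Pes1 and Polr1e) and in 8.07% of all. CGGAAG, the ETS core, was in 15 of 41, which belong to 14 of the 32 genes, and in 21.1% of all. These letters of the 4 motifs were not in the windows of Ncl, Nop56 or Taf1d. The stretches around 3 of the matches are shown with the match in capitals, for the gene nearest to a call, for a gene with the E-box at 2 places in its window, and for the single XBP1 element:
Nop2, chr6:125131803-125131848, plus strand: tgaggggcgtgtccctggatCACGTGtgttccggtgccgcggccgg
Rrn3, chr16:13780464-13780509, plus strand: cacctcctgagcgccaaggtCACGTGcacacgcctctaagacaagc
Utp15, chr13:98263016-98263062, minus strand: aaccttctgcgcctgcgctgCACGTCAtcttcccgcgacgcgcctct
In the Utp15 stretch the capitals are the element read from the other strand. The genes with these matches were unlike each other in Xbp1KO: Nop2 had a log2 fold change of 0.55, Rrn3 of 0.01 and Utp15 of 0.04. A match is a string of letters and not a measured binding site.

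Gene length separated the 2 Blimp1KO libraries. Across the 36 genes, the log2 CPM difference of Blimp1KO replicate 2 minus replicate 1 had a Spearman correlation of -0.71 with gene length, and across all 15073 tested genes of -0.50. The 13 of the 36 genes under 2000 bases had a median difference of 0.31, with 9 above 0. The 8 genes of 4000 bases or more had a median of -0.37, with 2 above 0. Over all genes of these lengths the medians were 0.4 and -0.49. In the other replicate pairs the correlation lay between -0.23 and -0.10 over the 36 genes and between -0.02 and 0.05 over all genes. Nhp2, Fbl, Gar1 and Polr1c are short genes with a positive difference, and Utp20, Heatr1, Polr1a and Ncl are long genes with a negative one. Others went the other way, among them the short Taf1d (-0.245) and Gnl3 (-0.259) and the long Utp15 (0.163) and Rrp12 (0.209). Genes are not independent replicates and share both libraries, so these are descriptions of the libraries. The ribosomal protein genes, which are short, were also higher in replicate 2. Over the 36 genes the group differences went with length as well, with a correlation of -0.41 for Blimp1KO minus WT, -0.38 for Xbp1KO minus WT and 0.45 for WT of batch 2 minus WT of batch 1. Over all genes these were -0.09, -0.04 and 0.27. The short and long genes of the 36 had median log2 fold changes of 0.26 and 0.06 in Blimp1KO, 0.66 and 0.34 in Xbp1KO, and -0.43 and 0.15 between the WT batches. Those of all short and long genes were 0.06 and -0.07, 0.14 and 0.04, and -0.32 and 0.32, in the same order.

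**Figure D5:**
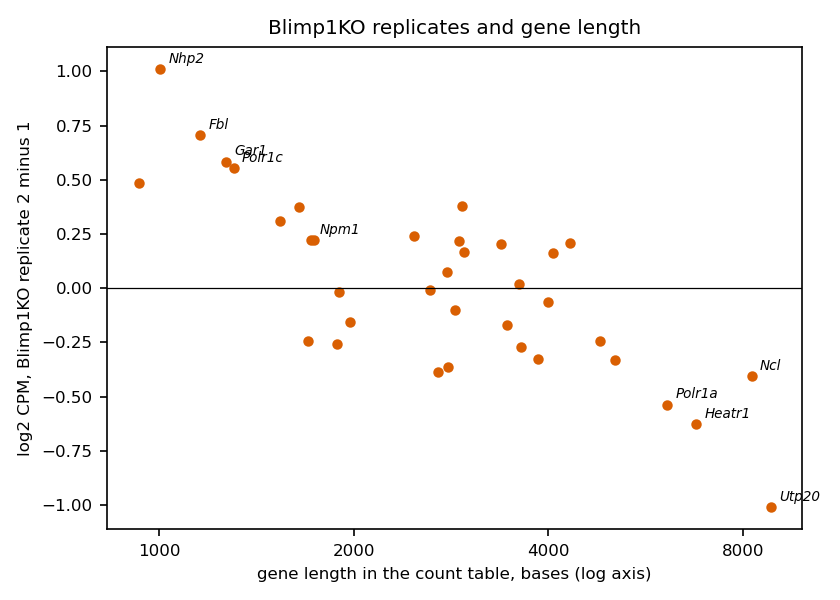
Difference in log2 CPM between Blimp1KO replicates 2 and 1 against gene length in the count table (bases, log axis), with 1 point for each of the 36 genes. Nhp2 lies highest at 1.01 with a length of 1004 bases, and Utp20 lowest at -1.01 with a length of 8831 bases.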

How the data were processed

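RNA of 8 libraries was measured by RNA-seq (RNeasy Micro extraction and TruSeq RNA libraries, per the labels' protocols). Subread, featureCounts and limma, and the builds GRCm38 and mm10, are named per the submitters' processing notes, without versions or roles. The series table deposited by the authors holds raw read counts per Entrez gene and a gene length in bases (other), per the file headers. The per-sample files deposited by the authors hold log2 FPKM for 13945 genes and served as an alternative. In batch 1 the FPKM of replicate 1 follow the counts of replicate 2 and the reverse (r = 0.988 to 0.997 over 10063 genes), in WT and in Blimp1KO, so replicate numbers here are those of the count table, and groups are not affected. Multi-mapping and strand settings are not given in the sources used here.

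Symbols came from the FPKM files for 13860 genes, all 36 of the list included, and from RefSeq for 11720, while 1599 had none. Genes were filtered with filterByExpr at a minimum count of 10. Counts were fitted in R 4.3.3 with edgeR 4.0.16 (TMM factors 0.564 to 2.11, quasi-likelihood test, Benjamini-Hochberg over 15073 genes, 4 group means, 4 residual and 3.06 prior degrees of freedom). The SE is the absolute log2 fold change over the square root of F. The fit was tested on simulated data. The alternatives used DESeq2 1.42.0, limma 3.58.1, other library sizes and filters, other control libraries, a replicate block and leaving out each library. The fit without WT replicate 4 and Xbp1KO replicate 2 was added after seeing the data.

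The 36 genes, their roles, the other lists and the motifs were chosen with earlier results of these data known. Values in every library are given for genes called and, among the others, for the 3 with the top and the 3 with the bottom log2 fold change per knockout. Outside the 36, the rule named up to 6 called ribosome biogenesis genes per knockout (2 as values where none was called), Prdm1, Xbp1 and Myc. Mrto4, Nop10, Shq1, the genes named from DESeq2 or unadjusted p, the ribosomal protein genes, the cycling markers and the length labels were named after their values were seen. P-values measure the spread between 2 libraries a group pooled over 4 groups.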

Additional observations from a re-analysis of the deposited data

Results flagged for a closer look

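In 3 genes of the cell type marker lists the effect of the 2 knockouts differed by edgeR's interaction test. Bub1, a mitotic kinase, had a difference of effects (Xbp1KO minus Blimp1KO) of 3.27 ± 0.37 (SE, log2, adjusted p = 0.0144), Top2a, the replication topoisomerase, of 2.40 ± 0.36 (adjusted p = 0.0321), and Cr2, a complement receptor of mature B cells, of 3.53 ± 0.60 (adjusted p = 0.0412). All 3 had a negative estimate in Blimp1KO (-0.99, -1.09 and -1.35) and rose in Xbp1KO (2.28, 1.31 and 2.19). Cr2 stood apart from its list: 9 of the 10 B cell markers had an estimate above 0 in Blimp1KO (median 1.22), and 9 of 10 had a difference of effects below 0 (median -1.01). All 15 cycling markers had a difference above 0 (median 2.19). None of the 36 ribosome biogenesis genes passed this test, and the largest difference among them was 0.91, for Gnl3.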

How the results depend on the processing

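No called gene among the 36, and no median of the 36 in a knockout, changed sign. Called genes and list medians outside the 36 were not followed through the alternatives. Of the genes with the lowest Xbp1KO estimates, none called, Nop16, Heatr1 and Polr1e each changed sign in 3 of 17 alternatives, up to 0.25, 0.11 and 0.28. In Blimp1KO the count of all genes called, 130, was 517 without the low-count filter, 862 by DESeq2, 83 by limma-voom, 20 in batch 1 alone and 269 against pooled WT, and of the 36 genes DESeq2 called 1. Leaving out 1 library gave 0 to 688 genes called, 0 to 1 of the 36, and a median of 0.10 to 0.15. In Xbp1KO the 1160 genes called became 2220 by DESeq2, and of the 36 genes DESeq2 called 9, limma on FPKM 7 and batch 2 alone 7. Leaving out 1 library gave 225 to 2123 genes called, 0 to 10 of the 36, and a median of 0.27 to 0.57. Without WT replicate 4 and Xbp1KO replicate 2, with 1 library on each side, the median of the 36 was 0.51. For the difference of effects, 253 genes called became 763 without the filter and 1180 by DESeq2. Leaving out 1 library gave 3 to 598 genes, 0 to 1 of the 36 (Nhp2, without Blimp1KO replicate 2), and a median of 0.0926 to 0.349. Between WT batches, 423 genes called became 1662 without the filter (1 of the 36), 1960 by DESeq2 (3 of the 36) and 204 by limma-voom, the median over the 36 changed sign from -0.07 to 0.0799 with library sizes outside immunoglobulin genes, and leaving out 1 library gave 14 to 2963 genes and 0 to 5 of the 36. Fits without 1 library hold fewer samples and leave 1 sample in a group, which is assumed to vary like the other groups. The causes of the other changes were not tested.

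Replicate numbers 1 and 2 are shared by WT and Blimp1KO in batch 1, and same-numbered libraries deviated together with r = 0.218 over 15073 genes, but no label ties them to an animal or day. With a replicate block, 89 genes were called in Blimp1KO (59 higher and 30 lower, 77 of them among the 130), and 0 of the 36. Xbp1KO shares no replicate number with WT of batch 2, so it has no such fit. The lowest count of any of the 36 genes in a library was 73 (Fbl).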
